A study of Mus musculus with 6 samples.

Results

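The genes that encode the enzymes of ethanol and acetaldehyde metabolism were followed in primary mouse hepatocytes of 2 genotypes. The set was fixed by gene symbol and held 10 genes, the alcohol dehydrogenases Adh1, Adh4, Adh5 and Adh7, the aldehyde dehydrogenases Aldh2, Aldh1a1 and Aldh1b1, the cytochrome P450 Cyp2e1, the catalase gene Cat and the acetyl-CoA synthetase gene Acss2. All 10 were among the 25718 genes of the deposited table, and all 10 passed the filter on low counts that left 15957 genes for testing. RNA sequencing had been done on hepatocytes from alcohol-fed wild-type (WT) mice and from S100a16KO+/- mice given the same alcohol feeding (3 libraries each), to ask how loss of S100A16 acts on gene expression during lipid accumulation. S100A16 is a calcium-binding protein of the S100 family.

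The S100a16KO+/- mice carried 1 deleted S100a16 allele, made by crossing mice with loxP sites around exons 2 and 3 to EIIa-Cre mice, which express Cre early in the embryo, so that the deletion is not limited to hepatocytes. Their background was over 98% C57BL/6, and homozygous loss was lethal. The labels of the samples call this genotype an S100A16 knockdown. Male mice of 8 to 10 weeks of age received a control liquid diet for 5 days, then 10 days of liquid diet in which ethanol was 5% by volume, and a single gavage of ethanol at 5 g/kg, with collection 9 h later, and hepatocytes were isolated by collagenase perfusion and a Percoll separation. Both genotypes were alcohol-fed, so the values give the genotype difference and the levels of the genes but no effect of ethanol. The time between isolation and RNA extraction, and whether each library came from a separate mouse, are not given in the sources used here, so p-values measure the spread between these libraries.

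In the liver, alcohol dehydrogenases in the cytosol oxidise ethanol to acetaldehyde with NAD+, the microsomal enzyme CYP2E1 does so with NADPH and oxygen, and catalase can do so in peroxisomes with hydrogen peroxide. Acetaldehyde is oxidised to acetate, mainly by mitochondrial ALDH2 and also by cytosolic ALDH1A1 and mitochondrial ALDH1B1. ACSS2 joins acetate to coenzyme A in the cytosol and nucleus.

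Of the 10 genes, 2 were lower in S100a16KO+/- hepatocytes at an adjusted p under 0.05, and none was higher. These were Aldh1a1, whose transcript fell by 36.9% (95% interval 31.7% to 41.7%), and Cyp2e1, whose transcript fell by 20.5% (95% interval 14.9% to 25.8%). The genes for the main hepatic alcohol dehydrogenase, Adh1, and for mitochondrial Aldh2 did not pass the test, with estimated differences of -7.17% and -2.42%. The direction was lower in 9 of the 10 genes, with Adh7 the exception, beside 7874 of all 15957 tested genes. The median log2 fold change (S100a16KO+/- over WT) was -0.12, beside 0.006 over all tested genes. Of the 9, Adh5 (-0.01), Aldh2 (-0.04) and Acss2 (-0.05) lay within 1 SE of 0, so their direction is not settled. Over all genes of the table, 22.8% of those tested had an adjusted p under 0.05 and 11.2% did so with a lower level in S100a16KO+/-, so 2 of 10 is close to the share of all genes. Among the 2781 tested genes whose mean reached 32 CPM (counts relative to the library total after edgeR's TMM scaling), 48.4% were called, beside 2 of the 8 enzyme genes at that level. None of the 10 met the criterion of the study's methods, an unadjusted p under 0.05 with a fold change of at least 2, which 4.52% of the tested genes met. The lower level of a transcript in these bulk samples can reflect fewer cells of a type or less RNA per cell, which cannot be told apart.

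The libraries held totals of 67658095 to 71807834 counts, of which 16.98% to 21.14% came from mitochondrially encoded genes, with the highest shares in WT library 1 and S100a16KO+/- library 2. S100a16 itself had 1001, 1056 and 1107 counts in WT against 433, 390 and 366 counts in S100a16KO+/-, a log2 fold change of -1.40 ± 0.11 (SE). Hepatocyte markers were abundant in both genotypes, with summed levels of 113900 to 126600 CPM in WT and 113900 to 126400 CPM in S100a16KO+/-.

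The promoter letters of the called genes, Aldh1a1 and Cyp2e1, are shown with those of Adh1, the most abundant alcohol dehydrogenase, which was not called. They are taken from RefSeq on GRCm38.p6, whose table held windows for 9 of the 10 genes, and lie within 250 bases before a RefSeq start site, without annotated exons. All 4 stretches are on the plus strand, and capitals mark matches to the motifs searched. For Aldh1a1 RefSeq gives start sites at chromosome 19, 20492583 and 20601968, so that stretches a and b stand before the upstream and the downstream site.
Aldh1a1 a, chr19:20492333-20492582: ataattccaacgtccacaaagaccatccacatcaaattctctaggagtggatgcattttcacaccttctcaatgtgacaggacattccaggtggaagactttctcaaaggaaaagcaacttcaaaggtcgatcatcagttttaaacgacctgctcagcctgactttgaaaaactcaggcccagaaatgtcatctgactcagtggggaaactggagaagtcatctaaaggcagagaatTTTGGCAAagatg
Aldh1a1 b, chr19:20601718-20601960: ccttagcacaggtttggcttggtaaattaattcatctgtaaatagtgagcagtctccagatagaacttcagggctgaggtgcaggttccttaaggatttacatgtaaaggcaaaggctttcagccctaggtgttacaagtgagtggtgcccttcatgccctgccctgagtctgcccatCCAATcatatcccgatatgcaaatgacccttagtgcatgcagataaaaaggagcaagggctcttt
Cyp2e1, chr7:140763569-140763738: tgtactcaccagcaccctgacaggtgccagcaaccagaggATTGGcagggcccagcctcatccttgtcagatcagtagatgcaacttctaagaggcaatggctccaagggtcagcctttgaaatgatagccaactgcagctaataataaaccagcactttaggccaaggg
Adh1, chr3:138277335-138277493: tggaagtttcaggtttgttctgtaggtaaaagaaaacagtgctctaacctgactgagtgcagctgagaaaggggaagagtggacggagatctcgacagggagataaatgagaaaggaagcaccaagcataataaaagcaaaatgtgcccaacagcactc
The search covered 8 motifs on both strands. General promoter motifs were the TATA box (TATAAA), the CCAAT box and the GC box (GGGCGG). Factor motifs were those of C/EBP (TTGCNNAA), of the PAR bZIP factors (TTANGTAA), of HNF1 (GTTAAT, as a partial site), of the E-box (CACGTG) and of HNF4 (CAAAGTCCA). Over 32817 windows of 250 bases, 12.4% held the TATA box, 33.8% the CCAAT box, 32.7% the GC box, 9.57% the C/EBP motif, 2.06% the PAR bZIP motif, 6.44% the HNF1 site, 6.02% the E-box and 0.384% the HNF4 motif. The upstream Aldh1a1 window held a C/EBP match from -13 to -6 bases and the downstream window a CCAAT match from -72 to -68. The Cyp2e1 window held CCAAT matches from -210 to -206 and from -68 to -64 and a TATA match from -31 to -26, of which only the first lies in the printed stretch. No motif of the 8 matched the Adh1 window. A match is a string of letters and no evidence of binding.

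Levels differed between the 10 genes by more than 3 orders of magnitude, and the order was the same in both genotypes. On the scale of fragments per kilobase of transcript, relative to the library total (FPKM), which corrects for transcript length, the order in WT was Cyp2e1, Adh1, Cat, Aldh2, Aldh1a1, Adh5, Aldh1b1, Adh4, Acss2 and Adh7. All 9 neighbouring pairs in this order were separated in each genotype, with every library of the higher gene above every library of the lower gene, and the same held for CPM per kilobase of exon. Cyp2e1 ranked 19 in WT and 23 in S100a16KO+/- among all nuclear genes by mean FPKM, Adh1 ranked 60 and 65, and Adh7 ranked 6760 and 6312. Summed over the 10 genes the level was 4171 ± 109 FPKM (SD, n = 3) in WT and 3491 ± 65.2 FPKM in S100a16KO+/-, and Cyp2e1 made up 66.2% and 63.2% of that sum.

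**Figure D1:**
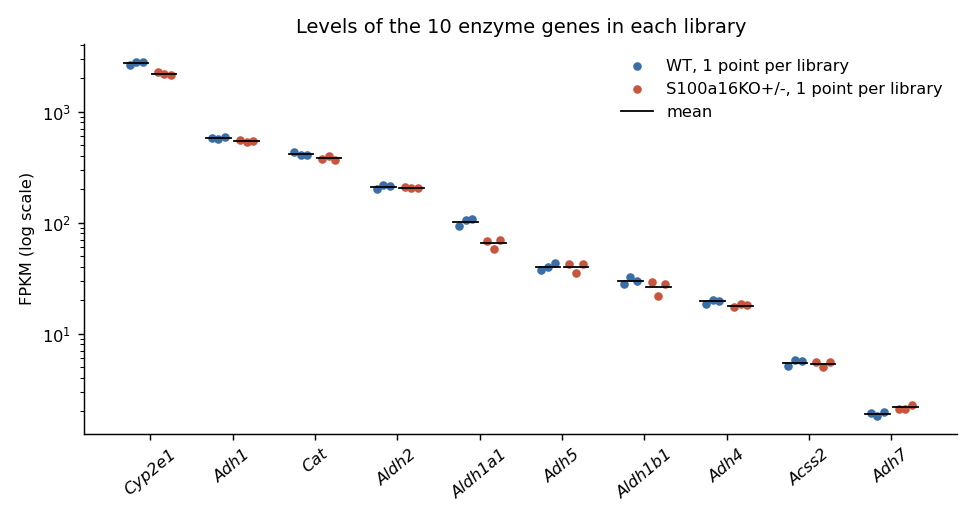
FPKM on a log scale (y) of the 10 enzyme genes (x) in each of the 3 WT and 3 S100a16KO+/- libraries, with the mean as a line. The order from Cyp2e1 to Adh7 is the same in both genotypes, and the groups of points separate visibly for Aldh1a1 and Cyp2e1.

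Aldh1a1 encodes a cytosolic aldehyde dehydrogenase that oxidises retinal to retinoic acid as well as acetaldehyde. The gene (ENSMUSG00000053279) lies on chromosome 19 from 20492715 to 20643465 (mm10). Its level was 93.8, 106 and 107 FPKM in WT and fell to 67.8, 57.4 and 69.97 FPKM in S100a16KO+/-. Every S100a16KO+/- value lay below every WT value, and S100a16KO+/- library 2 was the lowest. The log2 fold change was -0.66 ± 0.053 (SE), with an adjusted p of 4.93e-07 by edgeR's quasi-likelihood test. Aldh1a1 shared 5.70% of its 31-base transcript words with Aldh1a7, its neighbour in the same family, which itself was lower with a log2 fold change of -0.44 ± 0.058 (adjusted p = 6.11e-05). The estimated counts can be split differently between this pair where reads match both, and the comparison with Aldh1a7 was chosen after its values were seen. The ratio of Aldh1a1 to Aldh1a7 was 2.77 ± 0.135 in WT and 2.38 ± 0.0554 in S100a16KO+/- (SD, n = 3 each), with no overlap.

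Aldh2 encodes the mitochondrial aldehyde dehydrogenase with the highest affinity for acetaldehyde. Its level was 200, 216 and 214 FPKM in WT and 210, 204 and 204 FPKM in S100a16KO+/-. The groups overlapped, and the log2 fold change was -0.04 ± 0.047 (adjusted p = 0.665), with a 95% interval from -0.14 to 0.07. Aldh1b1, which encodes a second mitochondrial aldehyde dehydrogenase, was measured at 27.8, 32.4 and 29.8 FPKM in WT and at 29.4, 21.8 and 28.3 FPKM in S100a16KO+/-. On this scale the groups overlapped, whereas in CPM they did not, with 75.2, 80.7 and 75.4 in WT and 73.9, 59.2 and 69.7 in S100a16KO+/-. The log2 fold change of Aldh1b1 was -0.19 ± 0.075 (adjusted p = 0.0859), which misses the threshold. Single libraries moved this value, to -0.26 (adjusted p = 0.0403) without S100a16KO+/- library 1 and to -0.10 (adjusted p = 0.274) without S100a16KO+/- library 2.

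Within libraries the balance of the aldehyde dehydrogenases differed between the genotypes. The ratio of Aldh1a1 to Aldh2 in FPKM, which no library scaling enters, was 0.468, 0.490 and 0.502 in WT and 0.322, 0.282 and 0.344 in S100a16KO+/-, with no overlap. Aldh2 made up 61.4% of the summed FPKM of the 3 genes in WT and 69.3% in S100a16KO+/-, and Aldh1a1 made up 29.9% and 21.8%. These ratios and those given for other pairs were chosen with the values known and are descriptions without a test.

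Cyp2e1 encodes the ethanol-inducible P450 of the endoplasmic reticulum, a gene of pericentral hepatocytes. The gene (ENSMUSG00000025479) lies on chromosome 7 from 140763739 to 140774987. The libraries gave values of 2648, 2817 and 2823 FPKM in WT and of 2264, 2190 and 2160 FPKM in S100a16KO+/-. The groups did not overlap, and the WT mean of 2763 ± 99.1 FPKM stood against 2205 ± 53.7 FPKM in S100a16KO+/- (SD, n = 3 each). By the fit on counts the difference was -0.33 ± 0.046 (SE) on the log2 scale (adjusted p = 1.065e-04). Cyp2e1 shared 5.83% of its 31-base transcript words with other genes of GENCODE M21, most of them with Zan. The ratio of Cyp2e1 to Adh1 was 4.55, 4.94 and 4.74 in WT and 4.09, 4.15 and 3.93 in S100a16KO+/-, again with no overlap.

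Cat encodes catalase, the peroxisomal enzyme that breaks down hydrogen peroxide. It was measured at 432, 406 and 411 FPKM in WT and at 373, 398 and 367 FPKM in S100a16KO+/-. In FPKM the groups did not overlap, but in CPM they did, with 1329, 1149 and 1184 in WT and 1066, 1227 and 1028 in S100a16KO+/-. The log2 fold change was -0.14 ± 0.071 (adjusted p = 0.187). Single libraries moved this value in both directions. It was -0.08 (adjusted p = 0.541) without WT library 1 and -0.09 (adjusted p = 0.481) without S100a16KO+/- library 3. Without S100a16KO+/- library 2 the log2 fold change was -0.22 with an adjusted p of 0.0149, and without that library and WT library 1 together it was -0.16 with an adjusted p of 0.00802.

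**Figure D2:**
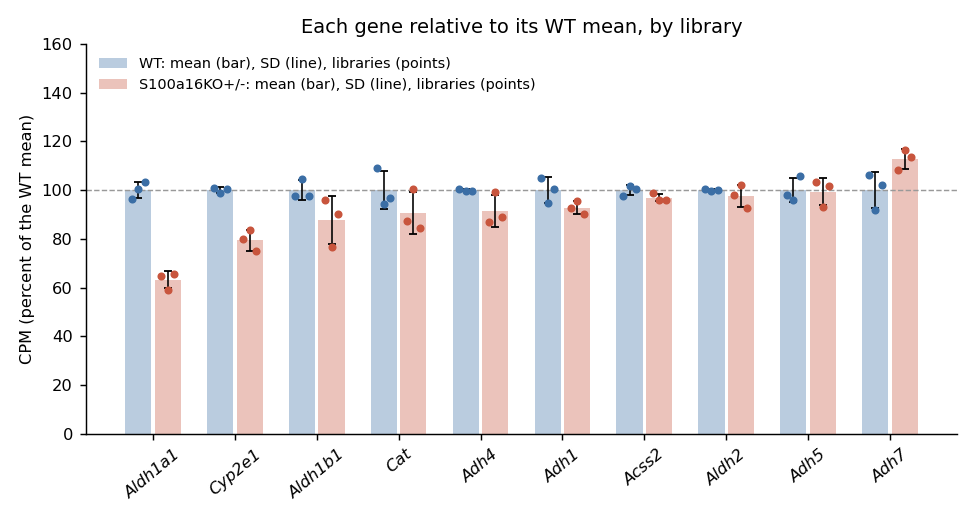
CPM of each enzyme gene as a percentage of its WT mean (y, from 0), by genotype, with bars for means, lines for the SD and points for the 3 libraries of each genotype. Aldh1a1 stood at 59.1% to 65.5% and Cyp2e1 at 74.9% to 83.5% of the WT mean in the S100a16KO+/- libraries, while the S100a16KO+/- means of the other genes lay closer to 100%.

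None of the 4 alcohol dehydrogenase genes was called in either direction. Adh1, which encodes the class I enzyme that oxidises most ethanol in mouse liver, was measured at 582, 570 and 595 FPKM in WT and at 554, 528 and 550 FPKM in S100a16KO+/-. The groups did not overlap in FPKM but did in CPM, where WT library 2 had 1379 and S100a16KO+/- library 2 had 1391. The log2 fold change of Adh1 was -0.11 ± 0.049 with an unadjusted p of 0.0465 and an adjusted p of 0.142, and the 95% interval of the difference ran from -13.7% to -0.132%. Adh1 made up 90.4% of the summed FPKM of the 4 genes in WT and 90.0% in S100a16KO+/-.

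Adh4 encodes a class II enzyme that acts at high ethanol concentrations. The WT libraries had 18.6, 20.1 and 19.8 FPKM and the others 17.3, 18.4 and 18.1 FPKM. The groups did not overlap in FPKM or in CPM, and the log2 fold change was -0.13 ± 0.069 (adjusted p = 0.220). Adh5 encodes the class III enzyme, which is a formaldehyde dehydrogenase dependent on glutathione and oxidises ethanol poorly. It was measured at 37.5, 39.96 and 43.2 FPKM in WT and at 42.6, 35.5 and 42.6 FPKM in S100a16KO+/-. The groups overlapped widely, with a log2 fold change of -0.01 ± 0.057 (adjusted p = 0.938), and the sign of this value turned with several settings.

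Adh7 encodes the class IV enzyme of the stomach and other epithelia, which also oxidises retinol. It was measured at 1.92, 1.81 and 1.98 FPKM in WT and at 2.11, 2.11 and 2.26 FPKM in S100a16KO+/-, the lowest level of the 10 genes. The S100a16KO+/- libraries were all above the WT libraries, but the log2 fold change of 0.17 ± 0.109 did not pass the test (adjusted p = 0.298). Its 524 to 663 counts per library stood for about 131 to 166 fragments, since 1 fragment was worth about 4 counts in the deposited table, and this depth limits what can be seen. The ratio of Adh7 to Adh1 was 0.00327 ± 8e-05 in WT and 0.00397 ± 0.000145 in S100a16KO+/-, with no overlap. Over all tested genes, 18.6% had 3 S100a16KO+/- values below all 3 WT values in CPM, as had Adh4, Aldh1a1, Aldh1b1 and Cyp2e1, 4 of the 10 genes. No such share is given here for genes of at least 32 CPM, which were called more often and include 8 of the 10 genes. Nor is one given for FPKM or for higher S100a16KO+/- values, so these separations have no background to be read against.

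Acss2 encodes the cytosolic and nuclear acetyl-CoA synthetase. It was measured at 5.09, 5.77 and 5.61 FPKM in WT and at 5.54, 5.00 and 5.50 FPKM in S100a16KO+/-. The groups overlapped, and the log2 fold change was -0.05 ± 0.053 (adjusted p = 0.621), with a 95% interval from -0.16 to 0.07. The exons of Acss2 in GENCODE M21 overlap genes of the opposite strand, with 395 shared bases for Gss, 335 for Acss2os and 197 for Ggt7. The libraries were made with a kit that marks strand, but the strand setting of the counting is not given in the sources used here.

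**Figure D3:**
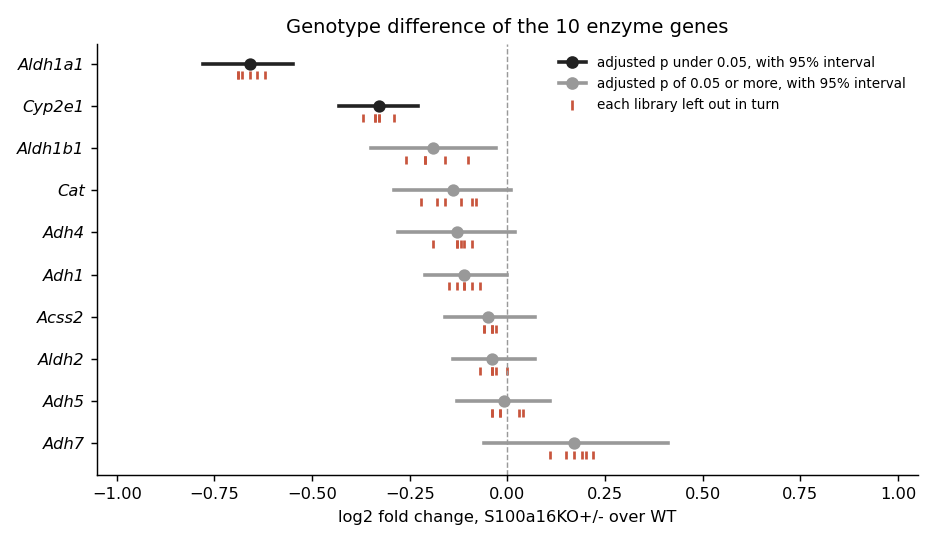
Log2 fold change of S100a16KO+/- over WT (x) for the 10 enzyme genes (y), with the 95% interval as a bar and, below it, ticks for the values with each of the 6 libraries left out in turn. Aldh1a1 and Cyp2e1, in black, had an adjusted p under 0.05, and their ticks from -0.69 to -0.62 and from -0.37 to -0.29 stay far from 0.

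The 4 alcohol dehydrogenase genes lie in 1 cluster of 237.7 kb on chromosome 3, from Adh7 at 138217760 to the end of Adh5 at 138455499, in the order Adh7, Adh1, Adh4 and Adh5. S100a16 lies on the same chromosome, 47.7 Mb away. Wholly within the cluster lay 7 genes of the table, of which 6 were tested. The antisense gene 0610031O16Rik spans Adh7, with 108 shared exonic bases, and extends beyond the cluster. It was not called (-0.07 ± 0.09), at 17.9 CPM in WT against 8.10 CPM for Adh7. This gene and the 2 tested genes wholly within the cluster other than the 4 enzyme genes were named after their values were seen. Gm16559, an antisense transcript that shares 136 exonic bases with Adh1, differed by -0.74 ± 0.10 on the log2 scale (adjusted p = 6.36e-05). Adh6-ps1, a gene annotated between Adh1 and Adh4, had -0.67 ± 0.10 (adjusted p = 0.000263). Both fell although the 4 enzyme genes around them were not called, at 21.01 and 11.6 CPM in WT against 1458 CPM for Adh1. Of 9 tested genes listed beside the cluster, only Dnajb14 was called, with -0.30 ± 0.10 (adjusted p = 0.0460).

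**Figure D4:**
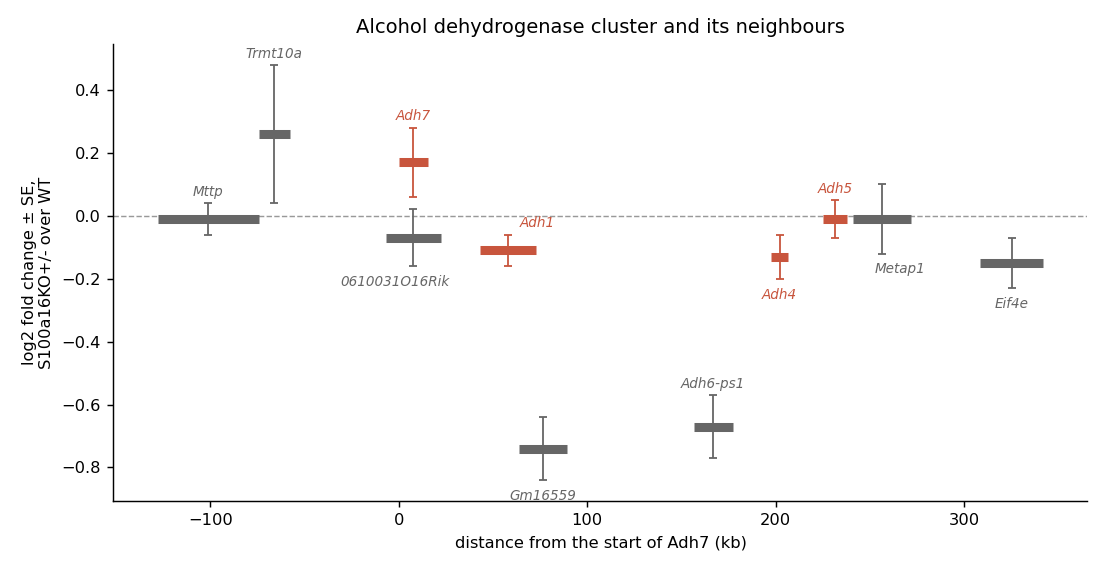
Log2 fold change ± SE (y) against distance from the start of Adh7 in kb (x) for tested genes with a WT mean of at least 1 CPM, with thick bars spanning each gene and the 4 enzyme genes in red. The enzyme genes lie between -0.13 and 0.17, and Gm16559 and Adh6-ps1 lie lower at -0.74 and -0.67.

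The 3 genes whose pattern over the 6 libraries was most like that of Aldh1a1 were sought among the 2781 genes with at least 32 CPM. They were Gm5096 (Pearson's r = 0.9991 of log2 CPM + 1), Ces1d (r = 0.9989) and Oat (r = 0.9984). Among the other 9 enzyme genes Cyp2e1 was most like Aldh1a1, with r = 0.917, and Adh7 was least like it, with r = -0.819. These values describe 6 libraries in 2 groups and are carried by the difference between the groups.

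Of 15 other tested ADH and ALDH family genes 8 fell and none rose, with a median log2 fold change of -0.22. The counts of this and the following lists are to be read beside the share over all tested genes, of which 22.8% were called and 11.2% were called lower. Among the 2781 tested genes of at least 32 CPM 48.4% were called, 747 lower and 599 higher. Whether a list differs from these shares was not tested. The largest changes among those of at least 1 FPKM were in Aldh3a2, a microsomal fatty aldehyde dehydrogenase (-0.78 ± 0.047, adjusted p = 2.59e-08), in Aldh1a7 and in Aldh8a1, an enzyme of kynurenine catabolism (-0.35 ± 0.051, adjusted p = 1.73e-04). Adh6a was not analysed here. Among 13 aldehyde and carbonyl reductases 6 fell and 2 rose. Akr1b8 rose by a log2 fold change of 1.44 ± 0.26 (adjusted p = 0.00101), from 1.11, 1.24 and 1.55 CPM to 2.83, 5.03 and 2.71 CPM, and the other gene that rose was Akr1b3, at 1.81 ± 0.141. Both were under 1 FPKM in every WT library. Akr1c20 (-0.43 ± 0.091) and Dhrs4 (-0.37 ± 0.054) fell.

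Oxidation of ethanol and acetaldehyde turns NAD+ into NADH, which shuttles and lactate dehydrogenase reoxidise. Of 13 genes of this list 6 fell and 2 rose. Got1, the cytosolic aspartate aminotransferase of the malate-aspartate shuttle, rose from 163, 162 and 168 CPM to 556, 524 and 569 CPM, a log2 fold change of 1.74 ± 0.051 (adjusted p = 9.80e-12). Gpd1 and Gpd2, the dehydrogenases of the glycerol phosphate shuttle, fell by 0.73 and 0.58 on the log2 scale, and Gpd1l was the other gene that rose, by 0.22. The mitochondrial enzyme genes of the malate-aspartate shuttle, Got2 (-0.29, adjusted p = 0.00234) and Mdh2 (-0.33, adjusted p = 4.67e-04), fell, and they were named after their values were seen. Mdh1 (-0.046), Slc25a11 (-0.082), Slc25a12 (-0.191) and Slc25a13 (-0.066) of the same list, named in the same way, were not called.

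Of 9 genes of acetate and acetyl-CoA handling 4 fell and 2 rose. Crat, the carnitine acetyltransferase, fell by 1.18 on the log2 scale (SE 0.080, adjusted p = 9.01e-08), Acss3, a mitochondrial short-chain acyl-CoA synthetase, fell by 0.60, Slc16a1, a monocarboxylate transporter, fell by 0.49 and Acaca, an acetyl-CoA carboxylase, fell by 0.44. Acacb and Acot12 rose by 0.28 and 0.21. Of 8 genes of microsomal electron transfer and other ethanol-oxidising P450s 3 fell, which were Cyb5b (-0.59), Cyp3a11 (-0.37) and Cyb5a (-0.20), and Cyb5r3 rose (0.27). Por, the reductase that passes electrons to CYP2E1, had a log2 fold change of -0.15 ± 0.055 and an adjusted p of 0.0678.

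Of 8 genes of the non-oxidative routes from ethanol, in which esters or sulfate are formed, 3 carboxylesterases fell and the sulfotransferase Sult1a1 rose (0.33 ± 0.055, adjusted p = 5.87e-04). Ces1d fell from 774, 831 and 845 CPM to 381, 329 and 374 CPM, a log2 fold change of -1.18 ± 0.060, Ces1f fell by 0.99 and Ces1g by 0.33. A list drawn up around hydrogen peroxide and peroxisomes, which also holds the import genes Pex5 and Pex14 and the cytosolic enzyme gene Xdh, had 11 tested genes, of which 5 fell and 1 rose, and Dao was not analysed here. Acox2, an acyl-CoA oxidase that produces hydrogen peroxide, fell by 0.63 on the log2 scale, Pex14, a gene of peroxisomal protein import, fell by 0.38, Pipox fell by 0.29 and Prdx5 fell by 0.20, while Xdh rose by 0.17. The Ces1 and Akr1 families hold similar genes, and how their reads were divided was not examined. Genes beyond the 3 with the largest change in each list were named because the count was small, after their values were seen.

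**Figure D5:**
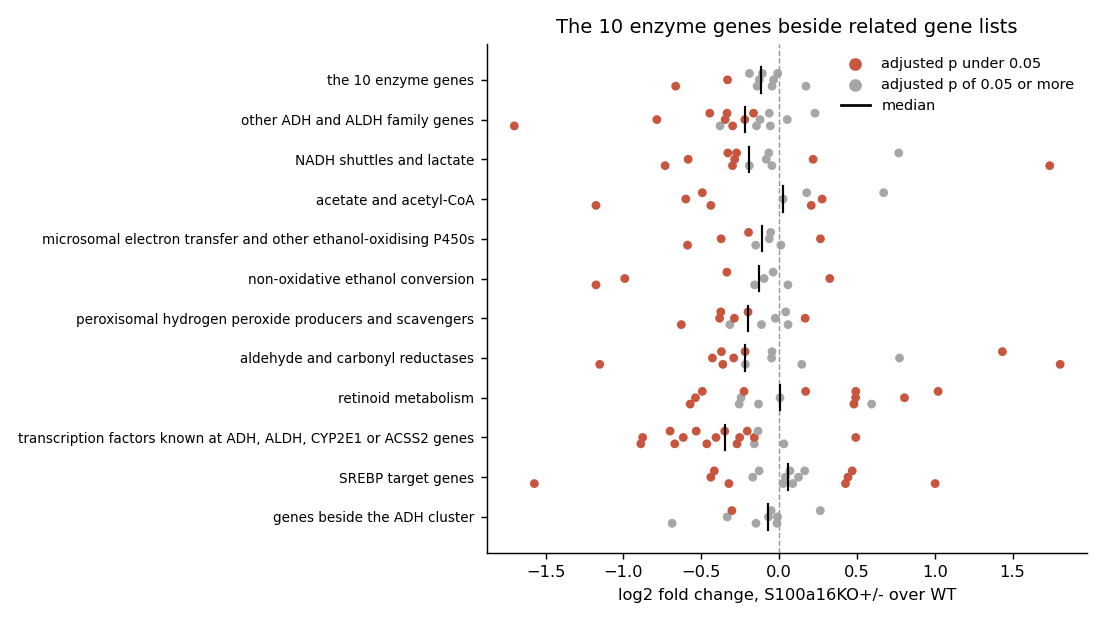
Log2 fold change of S100a16KO+/- over WT (x) of each tested gene of the 10 enzyme genes and of 11 related lists (y), red where the adjusted p was under 0.05, with the median as a line. The median of the 10 enzyme genes was -0.12, and that of the 17 transcription factors was -0.35.

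Of 17 transcription factors with known roles at ADH, ALDH, CYP2E1 or ACSS2 genes, 13 fell and 1 rose. Over all tested genes 22.8% were called in either direction, and 48.4% of those of at least 32 CPM. Srebf1, which encodes the sterol-responsive factor that drives lipid synthesis, had the largest decrease (-0.89 ± 0.051, adjusted p = 1.45e-08). Foxa2 and Cebpa, factors of the hepatocyte programme, fell by 0.88 and 0.70, and Cebpb, another C/EBP factor, rose by 0.49. Hnf4a (0.031), Ppara (-0.159) and Ctnnb1 (-0.135), named after their values were seen, were not called, so the fall was not shared by the whole list. The part of these changes in the levels of the enzyme genes was not tested.

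Markers of liver zones and of other cell types moved with the genotype. Of 12 pericentral markers other than Cyp2e1 5 fell and 3 rose, and their summed level was 1407 to 1455 CPM in WT and 1262 to 1308 CPM in S100a16KO+/-. Tbx3 (-2.43) and Oat (-0.65) fell and Slc1a2 (0.46) rose. The others called were Axin2 (-1.07), Lhpp (-0.32), Rgn (-0.23), Rhbg (0.43) and Gulo (0.17), while Glul (-0.08 ± 0.048, adjusted p = 0.270) and Cyp1a2 (0.01 ± 0.056, adjusted p = 0.914), named after their values were seen, were not called. Of 11 periportal markers 6 rose and 1 fell, with sums of 10780 to 10940 CPM in WT and 14580 to 14870 CPM in S100a16KO+/-. Of these, Pck1 (1.36) and Sds (1.14) rose most and Cdh1 (-0.31) fell. The periportal markers Cyp2f2 (0.27), Ass1 (0.09), Cps1 (-0.09) and Arg1 (-0.03), named after their values were seen, were not called, so the rise was not shared by the whole list.

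Of 8 sinusoidal endothelial markers 7 rose and 1 fell, and their sum went from 235 to 247 CPM in WT to 343 to 354 CPM in S100a16KO+/-, with Fcgr2b (0.73), Clec4g (0.69) and Kdr (0.61) among them and Lyve1 (-0.42) lower. Of 9 stellate cell markers 4 rose, Hand2 (1.33), Dcn (0.96), Lrat (0.81) and Reln (0.55), with sums of 37.2 to 40.5 CPM and 67.5 to 74.5 CPM. All 5 erythroid markers (Hba-a1, Hba-a2, Hbb-bs, Hbb-bt and Alas2) fell, from sums of 215 to 252 CPM to 23.4 to 26.3 CPM. Hba-a1 resembles Hba-a2 and Hbb-bs resembles Hbb-bt, so the split of reads within each pair is uncertain. Of 10 macrophage markers Marco (0.74), C1qb (0.43) and Lyz2 (0.33) rose, with sums of 158 to 187 CPM and 186 to 205 CPM. Of 8 hepatocyte markers Fgb (0.50) and Fga (0.32) rose and Ttr (-0.33) fell. Of 4 tested cholangiocyte markers Sox9 (-0.97) fell, while Krt19 (1.52), Epcam (0.465) and Spp1 (0.17) were not called. The sums of the cholangiocyte list overlapped, with 4.63 to 6.43 CPM in WT and 4.89 to 5.47 CPM in S100a16KO+/-. Of 6 leukocyte markers none was called by edgeR's quasi-likelihood test. No marker of these lists was at 0 in all libraries. The part of cell composition in the lower levels of Aldh1a1 and Cyp2e1 was not tested.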

How the data were processed

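Primary hepatocytes of alcohol-fed WT and S100a16KO+/- mice were profiled by strand-marked poly(A) RNA sequencing with molecular identifiers. The submitters' processing notes name cutadapt 1.9, HISAT2 2.0.4, UMI-tools, StringTie 1.3.4d and the mm10 build. The authors deposited 1 table with an estimated count and an FPKM value (fragments per kilobase, scaled to the library) per gene and library. The deposited counts were whole numbers in which 1 fragment was worth about 4 counts. A gene with a count of 0 was taken to allow a true level of up to 3 fragments, which is 12 counts. All value columns could be tied to a sample by name.

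Counts were fitted with edgeR 4.0.16 in R 4.3.3 (filterByExpr, TMM, robust quasi-likelihood test, two-sided) across 15957 genes, with Benjamini-Hochberg adjustment over all of them. CPM values carry the TMM scaling, whereas FPKM values do not, so that overlap between groups can differ between the scales. The test was run on simulated data, in which it missed some of the changed genes and the share of false calls was above the nominal level of the adjusted p. The simulated counts had the same dispersion (spread between libraries) for every gene, unlike the real data, so these shares need not hold for the real calls. Alternatives were a replicate block, other filters and scalings, DESeq2 1.42.0, limma 3.58.1 on counts and on log2 FPKM with pseudocounts of 1 and 0.1, counts divided by 4, and left-out libraries. The genes named are the 10 enzyme genes and, for each of 20 lists of other genes, up to 3 with an adjusted p under 0.05, a mean of at least 1 FPKM and the largest change, plus those said to be chosen after their values were seen. Some genes that this rule picks are not reported here. The enzyme genes, lists and motifs were chosen with earlier results of these data known. Exon lengths and overlaps come from GENCODE M21, in which 8 of the 10 genes have the same ends as in the deposited table.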

Additional observations from a re-analysis of the deposited data

How the results depend on the processing

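Aldh1a1 and Cyp2e1 had an adjusted p under 0.05 in all 19 alternatives, with log2 fold changes of -0.69 to -0.62 and -0.37 to -0.29, and the number of enzyme genes called was 2 to 3. None met the 2-fold criterion in any of them. Adh5, which was at -0.01, turned to 0.001 with a filter at a mean of 1 CPM, to 0.003 with total counts and no TMM, and to 0.02 without WT library 1 and S100a16KO+/- library 2 together, a pair left out because it had stood apart in an earlier analysis of these data. With each library left out in turn Adh5 ranged from -0.04 to 0.04, turning positive at 0.03 without WT library 3 and at 0.04 without S100a16KO+/- library 2. The count of called genes in the whole table was 3643 and fell to 2228 and 2208 with limma on log2(FPKM + 1) and log2(FPKM + 0.1), fits that tested fewer genes (9054). It ranged from 2734 to 3302 with each library left out. With the replicate number as a block it was 3082 and the enzyme genes called were 2. Deviations of same-numbered libraries from their group means correlated at -0.047, -0.024 and 0.052, so no pairing by number was seen. With 3 libraries per genotype these values cannot exclude a pairing. Of 80 list counts under DESeq2 and limma voom 78 stayed within 1.5 times. Under DESeq2 the genes beside the ADH cluster had 0 lower calls, so Dnajb14 was not called, and the hepatocyte markers had 2. The 95% intervals of the 8 enzyme genes that were not called reached from -21.6% for Aldh1b1 to 32.6% for Adh7, so differences of these sizes are not excluded for these genes.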

Other observations

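Retinoid metabolism shares enzymes with ethanol metabolism, since Aldh1a1 and Adh7 act on retinoids as well. Of 15 other retinoid genes 6 rose and 4 fell in S100a16KO+/-, and the median over the list was 0.01 on the log2 scale. Cyp26b1, which breaks down retinoic acid, rose from 48.1, 46.4 and 43.7 CPM to 94.5, 97.5 and 88.7 CPM, a log2 fold change of 1.02 ± 0.060 (adjusted p = 2.12e-08 by edgeR's quasi-likelihood test). Bco2, a carotenoid-cleaving enzyme, fell by 0.54 on the log2 scale. Rdh16 (-0.49) and Dhrs3 (-0.23) also fell. Lrat (0.81), Rdh9 (0.49), Bco1 (0.49), Rdh11 (0.48) and Rbp4 (0.17) also rose. The genes of these last 2 sentences were named after their values were seen. Lrat is also counted among the stellate cell markers given above.

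Acss2 is a target of the SREBP factors, and of 16 other tested SREBP target genes 4 rose and 4 fell. Fasn, the fatty acid synthase, fell from 302, 298 and 290 CPM to 99.0, 108 and 92.6 CPM, a log2 fold change of -1.57 ± 0.060 (adjusted p = 2.12e-10). Fdps, of the sterol branch, rose from 21.5, 21.6 and 20.98 CPM to 44.2, 40.3 and 43.9 CPM, Insig1 rose by 0.47, and Scd1 and Me1 rose by 0.43 and 0.44. Hmgcs1, Elovl6 and Acaca fell by 0.32, 0.42 and 0.44. Genes beyond Fasn, Fdps and Insig1 were named after their values were seen.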
